A study of Drosophila melanogaster with 4 samples.

Results

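The genes described here were abundant transcripts of Drosophila S2 cells that were moderately higher after incubation in KRB than in Schneider's medium. They were chosen by a rule on read counts. A gene had to hold at least 1000 raw reads in each of the 4 libraries, and its summed reads in KRB had to be more than 0.8 and less than 4 times its summed reads in Schneider's medium. Of 2049 listed genes, 138 passed the count minimum and 125 of these had a ratio in this range. Another 49 were left out by name, namely 38 genes whose symbols begin RpL or RpS (cytosolic ribosomal proteins, called Rp genes here) and 11 others, among them chaperones, detoxification enzymes and non-coding RNAs with CR numbers. This left 76 genes. Because they were selected on the difference between the media, that difference is given as a description, with no test.

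S2 cells are a line derived from late Drosophila embryos, with features of haemocytes, the blood cells of the fly. The fed samples were cells in Schneider's medium supplemented with serum, in which they grow, and the starved samples were cells incubated for the same 4 h in KRB, Krebs Ringer bicarbonate buffer, a salt solution without amino acids that is richer in sodium. The labels of the 4 samples name no other treatment or genetic change, and each medium has 2 biological replicates, numbered 1 and 2. The 2 media differ in amino acids, serum and salt at once, so that these cannot be told apart. Total RNA was sequenced after depletion of ribosomal RNA, so that RNAs without a poly(A) tail can also be counted.

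Several of these genes belong to the stress response that runs through the Jun N-terminal kinase (JNK). JNK phosphorylates Jun, which pairs with Fos to form the transcription factor AP-1, and AP-1 drives genes such as puc, the phosphatase that switches JNK off again. Others act in zinc and organic solute transport, in glutathione and glucose metabolism, or in the decay of faulty mRNAs.

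The table of counts is itself a selection of genes that differ between the media. The smallest absolute log2 fold change of a tested gene was 0.84, so that no unchanged gene can serve as a reference. Reads on the listed genes came to between 1108029 and 2801713 per library, and the full depth is unknown. Of the marker genes of haemocytes, 4 of 24 were listed. Their summed normalized count was 1406 to 2469 in Schneider's medium and 554 to 950 in KRB. Among them eater, Sr-CI and Ppn were lower in KRB, though Sr-CI differed between the Schneider's replicates (736 and 255). PPO1 was not tested and went the other way, with 1 raw read in each Schneider's library and 5 and 6 in KRB. The defining markers Hml and NimC1 were not in the counts analysed here, and 0 of the 76 genes were among the haemocyte markers. Markers of fat body were listed at 0 of 12, and those of neurons, muscle, germline, midgut and epidermis at 1 or 2 each. Whether the makeup of the cultures had a part in the values below was not tested, and in bulk RNA fewer cells of a type and less RNA per cell cannot be told apart.

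The 76 genes took 19.6% (95% exact binomial interval 19.5% to 19.6%) of the reads on listed genes in Schneider's replicate 1. In Schneider's replicate 2 they took 15.3% (15.2% to 15.3%). In KRB they took 25.4% (25.3% to 25.4%) and 24.4% (24.4% to 24.5%). These intervals cover counting error only. The share was higher in either KRB library than in any Schneider's library, and the Schneider's replicates were farther apart than the KRB replicates. After scaling of the libraries by TMM (trimmed mean of M values, edgeR), the summed normalized counts were 264874 and 219557 in Schneider's medium and 671850 and 696229 in KRB.

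Each of the 76 genes had a higher normalized count in both KRB libraries than in both Schneider's libraries. Among all 1756 tested genes 42.5% showed this order, and 42.3% were called higher in KRB by edgeR's quasi-likelihood test, with a Benjamini-Hochberg adjusted p below 0.05. Nothing is read from the count of 76, since the rule used the same contrast. The lowest KRB count exceeded the highest Schneider's count by 1.46 times (robo2) to 4.71 times (CG5399), with a median of 2.23 times. The log2 fold change, KRB relative to Schneider's medium, ran from 1.17 to 2.40 with a median of 1.39, and its quartiles were 1.26 and 1.67. By comparison, the median over all tested genes was -0.92, and it was 1.72 over the 751 tested genes with a positive value. Of the 76 genes, 28 had a log2 fold change of at least 1.5 and 6 of at least 2.

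**Figure D1:**
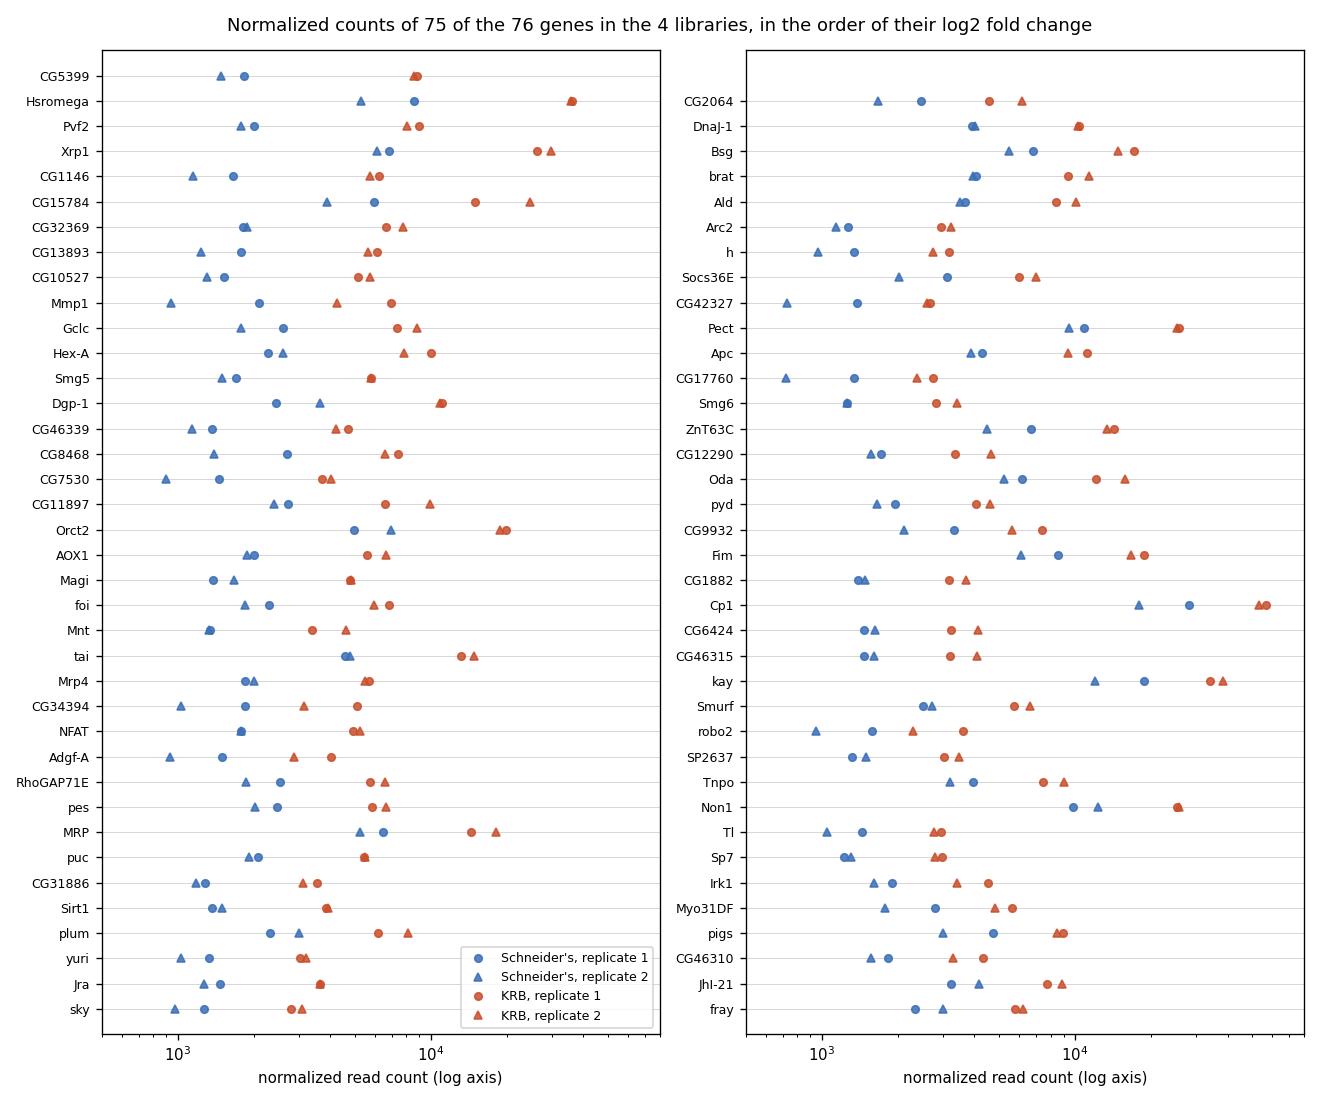
Normalized read counts (horizontal log axis) of 75 of the 76 genes in the 4 libraries, ordered from the largest log2 fold change (CG5399, 2.40) to the smallest (fray, 1.17). Blue points are Schneider's medium, red points KRB, circles replicate 1 and triangles replicate 2. In every row both red points lie to the right of both blue points.

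The limits of the rule cut through a continuous range on 2 sides. Sp7, Smg6 and Arc2 were just inside the count minimum with 1000, 1031 and 1037 reads in their lowest library. CG43739, ken and Gpo-1 were just outside with 978, 973 and 939 reads. CG43739 shares exon bases on the same strand with the member sky and may not be a separate measurement. Near the upper ratio, Hsromega (3.86), CG5399 (3.76) and Pvf2 (3.15) were inside and scyl (4.12), lama (4.68) and CG8177 (5.56) outside. The lower ratio separated nothing closely. The lowest ratio inside was 1.49 (fray), followed by JhI-21 and by Non1 (1.53). The highest outside were 0.390 (Indy), 0.384 (Nmd3) and 0.360 (alphaTub84D), all of them genes with fewer reads in KRB.

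Among the 75 genes found in the annotation 74 were protein-coding. The exception was Hsromega, a long nuclear RNA known for its accumulation after heat shock and for organising nuclear speckles of RNA-binding proteins. It lies at 3R:21296127-21317836 on the plus strand of the BDGP6 (Dm6) assembly. Its normalized counts were 8608 and 5295 in Schneider's medium (replicates 1 and 2) and 36057 and 35622 in KRB, a log2 fold change of 2.37 ± 0.27 (SE, n = 2 per medium, as for all values below). The KRB libraries were close to each other, whereas Schneider's replicate 1 was well above replicate 2.

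The members included 5 genes of the JNK pathway: the AP-1 subunits kay (Fos) and Jra (Jun), the phosphatase puc, and the JNK-responsive genes Mmp1 and Pvf2. The gene kay was the second most counted of the 76 genes. Its normalized counts were 18647 and 11983 in Schneider's medium and 34180 and 38247 in KRB, a log2 fold change of 1.24 ± 0.26. Jra gave normalized counts of 1467 and 1275 against 3634 and 3637, a log2 fold change of 1.41 ± 0.16. For puc the counts were 2070 and 1907 against 5443 and 5493, a log2 fold change of 1.46 ± 0.15. For Jra and puc the replicates of a medium lay close together, while for kay the Schneider's replicates were far apart. The order of the media held for kay in all libraries with TMM. Scaled by total counts, kay was higher in Schneider's replicate 1 than in KRB replicate 1.

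The secreted products of the pathway had larger fold changes than the AP-1 subunits. Pvf2, a ligand of the PDGF/VEGF-type receptor Pvr, had counts of 2005 and 1775 in Schneider's medium and 8996 and 8057 in KRB, a log2 fold change of 2.17 ± 0.17. Mmp1, a matrix metalloprotease, had counts of 2103 and 942 against 6930 and 4269. Its log2 fold change of 1.88 carried the largest standard error of the 76 genes, 0.42. In both media replicate 1 of Mmp1 was above replicate 2, and with 1 library left out its log2 fold change ran from 1.26 to 2.41.

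Of 36 genes of the JNK pathway in a list made after the members had been seen, 11 were in the table. The 5 members were selected for their difference between the media and are not counted here. The other 6, Gadd45, Traf4, hid, Ilp8, upd3 and upd2, had log2 fold changes of 1.37 to 3.85, and all 6 were called higher in KRB, beside 42.3% of all tested genes. With total counts as the scaling 4 of the 6 were called higher, beside 19.1% of all tested genes. The cytokine upd2 had the largest value, 3.85 ± 0.67, with 113 and 50 raw reads in the Schneider's libraries and 1016 and 905 in the KRB libraries. Its adjusted p was 0.0028 (edgeR's quasi-likelihood test). The listed genes were selected for a difference between the media, and upd2 was picked as the largest value. This p is therefore a description only. Of 12 genes of the JAK/STAT pathway, which upd cytokines activate, 4 were listed. The 3 that are not members were upd2 and upd3, both already counted in the JNK list, and ken. All 3 were called higher with TMM, beside 42.3% of all tested genes, and 2 of the 3 with total counts, beside 19.1%. Only ken adds to the JNK list, and it missed the count minimum of the rule narrowly.

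Another 6 members regulate transcription. Xrp1, a bZIP factor that acts in stress and in cell competition, had counts of 6804 and 6102 in Schneider's medium and 26267 and 29821 in KRB, a log2 fold change of 2.12 ± 0.19. It was the sixth most counted of the 76 genes and had the largest fold change of this group, with no overlap between the media. The next were Mnt, the Myc antagonist, with a log2 fold change of 1.58 ± 0.19, and tai, a coactivator of the ecdysone receptor, also with 1.58 ± 0.17. Mnt gave normalized counts of 1340 and 1334 in Schneider's medium and 3393 and 4624 in KRB. NFAT, which is related to the mammalian factor that answers to tonicity, gave 1778 and 1781 against 4905 and 5261, a log2 fold change of 1.51 ± 0.15. In Mnt and NFAT the Schneider's replicates were almost equal. The deacetylase Sirt1 (1.44) and the repressor h (hairy, 1.36) had the lowest log2 fold changes of this group. A list of 30 immediate early and stress genes had 9 genes in the table, which apart from puc and Gadd45 are transcription factors. Of the 9, 5 (kay, Jra, puc, Xrp1 and Mnt) are among the 76 genes and were selected for this contrast. The 4 others, Gadd45, Dif, Hr38 and slbo, had log2 fold changes between 1.37 and 4.29, and Gadd45 was already counted in the JNK list. All 4 were called higher with TMM and 3 with total counts, beside the 42.3% and 19.1% of all tested genes.

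A group of 9 members moves ions, metals or organic solutes, or acts directly on such transporters. The organic cation transporter Orct2 was the most counted of these per kilobase of exon and gave 4987 and 6988 normalized counts in Schneider's medium and 19768 and 18738 in KRB, a log2 fold change of 1.68 ± 0.22. It was an exception to the order of most members within Schneider's medium, since replicate 2 was the higher. The pair of zinc transporters consists of foi, a ZIP-family importer, and ZnT63C, an exporter. The counts of foi were 2296 and 1845 against 6860 and 5981, a log2 fold change of 1.63 ± 0.18. Those of ZnT63C were 6720 and 4477 against 14221 and 13314, a log2 fold change of 1.30 ± 0.23. Of 16 zinc transporter genes these were the 2 in the table.

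The ABC exporters MRP and Mrp4 had log2 fold changes of 1.47 ± 0.21 and 1.55 ± 0.15. MRP was the tenth most counted member, with 6475 and 5258 against 14392 and 18128. CG11897, named rdog in the annotation and an ABC transporter of the same class, was also a member and had 2734 and 2411 against 6615 and 9955. In CG11897 the KRB replicates differed by more than the Schneider's replicates. Of the 16 genes of the class 5 were listed. The 2 that are not members, Sur and CG9270, were called lower with log2 fold changes of -1.28 and -1.25, beside 53.6% of all tested genes called lower.

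The kinase fray, the relative of mammalian SPAK and OSR1 that acts below the kinase Wnk on cation-chloride cotransporters, had the lowest log2 fold change of all members, 1.17 ± 0.18. Its counts were 2330 and 3013 in Schneider's medium and 5803 and 6224 in KRB. Irk1, an inward rectifier potassium channel, had 1890 and 1598 against 4534 and 3409, a log2 fold change of 1.19 ± 0.20. The media did not overlap in either gene with TMM. Scaled by total counts they overlapped in Irk1, where Schneider's replicate 1 was above KRB replicate 2. Ncc69, a cotransporter on which fray acts, is not a member because of its lower counts. It had a log2 fold change of 1.32 and was called higher with TMM but not with total counts. These were the 3 listed of 10 genes of the WNK pathway, a list made after fray and Irk1 had been seen. The amino acid transporter JhI-21 gave normalized counts of 3231 and 4163 against 7754 and 8890, a log2 fold change of 1.17 ± 0.19. Bsg (1.38), a membrane glycoprotein whose mammalian relative escorts monocarboxylate transporters, completes the group.

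**Figure D2:**
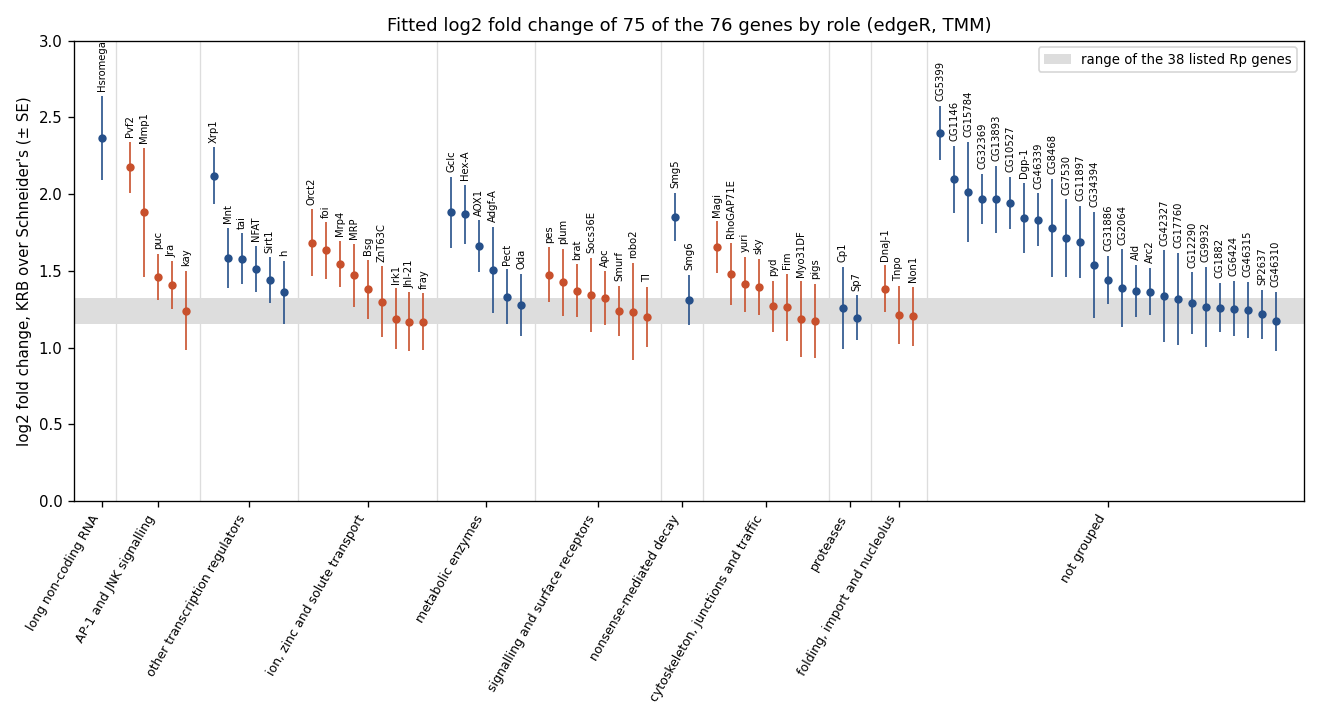
Fitted log2 fold change, KRB relative to Schneider's medium (vertical axis, linear) of 75 of the 76 genes by role, with bars of 1 standard error on each side. The colours only separate neighbouring groups. The grey band spans the 38 Rp genes, 1.15 to 1.32, and 49 of the 76 genes lie above it. None could lie below it, since no tested gene had a positive value under 1.15.

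Of the members, 7 encode enzymes of metabolism. Gclc, the catalytic subunit of the rate-limiting enzyme of glutathione synthesis, gave 2612 and 1784 counts in Schneider's medium and 7368 and 8801 in KRB, a log2 fold change of 1.88 ± 0.23. Hex-A, a hexokinase that phosphorylates glucose on its way into glycolysis, gave 2266 and 2606 against 9974 and 7818, a log2 fold change of 1.87 ± 0.19. These were the largest of the group, and the replicates of a medium were ordered in opposite ways in the 2 genes. Of 15 glycolysis genes the other one listed was the glucose transporter Glut1, which held only 8 and 22 raw reads in the Schneider's libraries and 51 and 89 in the KRB libraries (log2 fold change 2.76 ± 0.36). Of 31 antioxidant genes 4 were listed, Gclc and 3 that were called lower, beside 53.6% of all tested genes called lower.

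The most counted enzyme was Pect, which makes the precursor of phosphatidylethanolamine. Its counts were 10819 and 9445 against 25712 and 25307, a log2 fold change of 1.33 ± 0.18. The aldehyde oxidase AOX1 (1.66) and the adenosine deaminase Adgf-A (1.51) were above Pect, and Oda, the antizyme that restrains polyamine synthesis (1.28), was below it. In Adgf-A replicate 1 was above replicate 2 in both media, with 1500 and 936 counts in Schneider's medium and 4033 and 2877 in KRB.

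Another 8 members are signalling proteins or surface receptors, and their log2 fold changes lay in a narrow range of 1.20 to 1.48. The highest was pes, a scavenger receptor of the CD36 family, with 2478 and 2026 counts in Schneider's medium and 5860 and 6655 in KRB. Then came plum, an immunoglobulin-family protein (1.43), brat, a translational repressor (1.37), Socs36E, the feedback inhibitor of JAK/STAT signalling (1.34), and Apc, which restrains Wnt signalling (1.32). Smurf, a ubiquitin ligase of Dpp signalling, and robo2, a receptor for Slit, both had 1.24. The values of robo2 were among the least repeatable, with 1572 and 944 against 3615 and 2298 and a standard error of 0.32. The receptor Tl (Toll) had the lowest value, 1.20, from 1445 and 1044 against 2947 and 2764. Of 15 genes of the Toll pathway 3 were listed. Beside Tl these were the factor Dif, which was called higher, and the protease SPE, which was called lower. Of all tested genes 42.3% were called higher and 53.6% lower.

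Smg5 and Smg6 act in nonsense-mediated decay, the pathway that removes mRNAs with premature stop codons, and Smg6 is the nuclease that cuts them. Smg5 had counts of 1701 and 1501 in Schneider's medium and 5773 and 5775 in KRB, a log2 fold change of 1.85 ± 0.16. Smg6 had 1259 and 1252 against 2824 and 3407, a log2 fold change of 1.31 ± 0.16. In both genes the Schneider's replicates were close and far below the KRB replicates. They were the 2 listed of 11 genes of this pathway.

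A further 8 members belong to the cytoskeleton, cell junctions or vesicle traffic. Magi, a junction scaffold, had the largest log2 fold change, 1.65 ± 0.17, from 1376 and 1674 counts in Schneider's medium and 4792 and 4817 in KRB. The most counted was Fim, the actin bundler fimbrin, with 8579 and 6127 against 18691 and 16567 and a log2 fold change of 1.26 ± 0.22. The group also holds RhoGAP71E (1.48), yuri (1.41), the Rab GTPase activator sky (1.40), the junction protein pyd (1.27), the unconventional myosin Myo31DF (1.19) and pigs, a Gas2-like linker of actin and microtubules (1.17). The counts of pigs were 4747 and 3001 against 8989 and 8488. In 7 of these 8 genes Schneider's replicate 1 was above replicate 2, Magi being the exception.

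Cp1, the lysosomal protease cathepsin L, was the most counted of the 76 genes. It gave 28099 and 17797 normalized counts in Schneider's medium and 56518 and 53360 in KRB, a log2 fold change of 1.26 ± 0.27. The KRB replicates were close to each other and the Schneider's replicates were not. The other protease, the secreted serine protease Sp7, had 1221 and 1298 against 2968 and 2798, a log2 fold change of 1.19 ± 0.15. Another 3 members act in protein folding, nuclear import or the nucleolus. DnaJ-1, an Hsp40 cochaperone, had 3904 and 4028 against 10392 and 10296, a log2 fold change of 1.38 ± 0.15. It was the 1 gene listed of 21 chaperone genes with other names than Hsp. Non1, a nucleolar GTPase of ribosome assembly, was the fourth most counted member with 9802 and 12332 against 25216 and 25776 (1.20 ± 0.19). For DnaJ-1 the replicates were nearly equal within each medium. The import receptor Tnpo (1.21) lay close to Non1. Of 18 genes of the nucleolus and ribosome assembly 4 were listed, Non1 and 3 that were called lower, beside 53.6% of all tested genes.

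The other 25 members were not placed in a group, and most carry only a CG number. Among them is CG11897, described above with the ABC exporters but not counted in the transport group. Their log2 fold changes ran from 1.17 (CG46310) to 2.40 (CG5399), with a median of 1.44. CG5399, at 3R:15695241-15697142 on the plus strand, had the largest value of all 76 genes, 2.40 ± 0.18, from 1821 and 1479 counts in Schneider's medium and 8824 and 8569 in KRB. CG1146 followed in this group with 1656 and 1151 against 6252 and 5737, a log2 fold change of 2.10 ± 0.22. CG15784 was the ninth most counted member, with 5951 and 3881 against 14991 and 24724 and a log2 fold change of 2.02 ± 0.32. In CG5399 and CG1146 the KRB replicates were close to each other, whereas in CG15784 KRB replicate 2 was far above replicate 1, the widest distance upward among the 76 genes. Arc2, near the count minimum of the rule, had 1266 and 1135 against 2952 and 3232 (1.37 ± 0.16). Dgp-1 (1.85), CG32369 (1.97), CG13893 (1.97), CG10527 (1.94) and CG46339 (1.83) were also in the upper part of the range. Neighbours in the order of the 76 genes differed by at most 0.19 in log2 fold change, and the standard errors ran from 0.15 to 0.42, so that only distant places in the order lay apart by more than these errors.

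The ratio between replicates of a medium was not itself a term of the rule, but the count minimum bears on it. Schneider's replicate 1 held the lowest raw count of the 4 libraries in 75 of the 76 genes, so that the minimum of 1000 reads favoured genes that were high in this library. In Schneider's medium the log2 ratio of replicate 2 to replicate 1 had a median of -0.23 over the 76 genes and was below 0 in 56 of them. It ran from -1.16 in Mmp1 to 0.58 in Dgp-1, and 23 genes lay beyond 0.5 in size. Over the 38 Rp genes the median was 0.22 with 1 below 0, and over all tested genes it was 0.06. Of the 76 genes, 54 lay below every Rp gene. The most uneven genes after Mmp1 were CG8468 (-0.96), CG42327 (-0.92), CG17760 (-0.90), CG34394 (-0.84) and robo2 (-0.74). Of these CG42327 and CG17760 held only 1121 and 1099 raw reads in replicate 1, close to the limit. With the minimum raised after seeing the data, the median was -0.31 over the 33 genes with at least 2000 reads in every library (26 below 0) and -0.30 over the 19 with at least 3000 (15 below 0). A higher minimum likewise favours genes that are high in Schneider's replicate 1, so these medians cannot show the part played by the minimum. The minimum did not limit the Rp genes in the same way. How much of the difference from the Rp genes came from the choice of genes was not tested.

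In KRB the replicates were closer. The log2 ratio of replicate 2 to replicate 1 had a median of 0.02 over the 76 genes, was below 0 in 34 of them and lay beyond 0.5 in 5. It ran from -0.70 in Mmp1 to 0.72 in CG15784, and its median over the Rp genes was 0.15. Mmp1, CG34394 and robo2 were lower in replicate 2 in both media. The medians in Schneider's medium kept their sign with other scalings, at -0.32 with total counts, -0.41 with relative log expression factors and -0.36 with upper-quartile factors. The median in KRB was near 0 and turned to -0.08 with total counts.

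**Figure D3:**
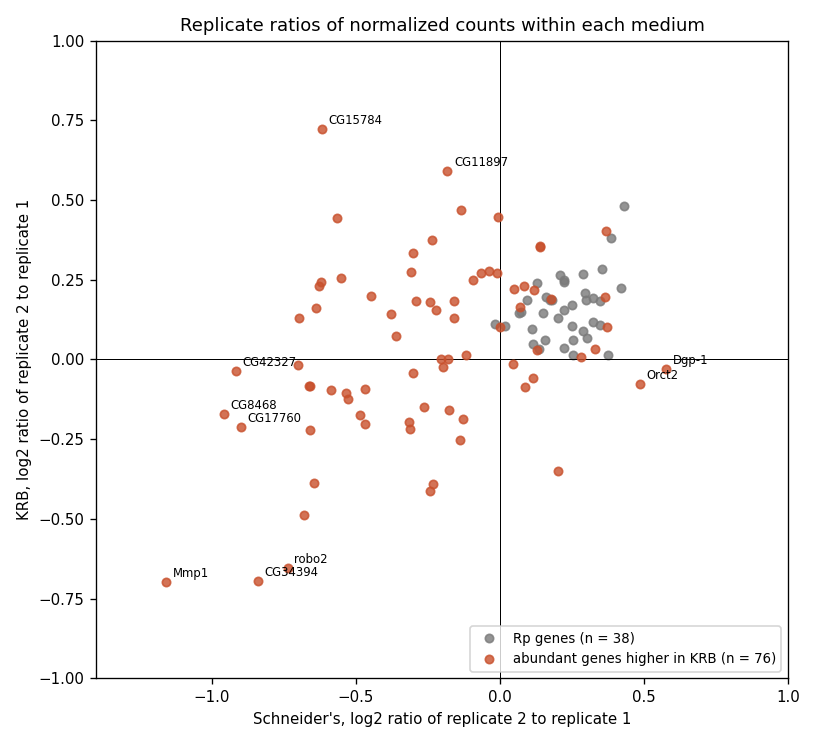
Log2 ratio of replicate 2 to replicate 1 in Schneider's medium (horizontal) and in KRB (vertical), from normalized counts, for the 76 genes (red) and the 38 Rp genes (grey). The red points spread to the left, down to -1.16 for Mmp1, while the Rp genes form a compact group around 0.22 and 0.15.

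The size of the fold changes rests on the scaling of the libraries, since the listed genes were selected for their change. With TMM the 38 Rp genes had log2 fold changes of 1.15 to 1.32 with a median of 1.22. Of the 76 genes, 49 were above the highest Rp gene and 27 were within the Rp range. No tested gene with a positive log2 fold change was below 1.15, the lowest Rp value. Both sets were thus cut off at the same floor, and none of the 76 genes could lie below the Rp range. The difference between the median of the 76 genes and that of the Rp genes was 0.17, and it was 0.16 to 0.17 with total counts, relative log expression factors and upper-quartile factors. The medians themselves moved. With total counts that of the 76 genes was 0.41, and with relative log expression factors 2.12. The median of all tested genes moved by -0.97, 0.46 and 0.74 with total counts, upper-quartile factors and relative log expression factors. With total counts 54 of the 76 genes kept the KRB counts above the Schneider's counts without overlap (32.9% of all tested genes). By edgeR's quasi-likelihood test, 33 were called higher with an adjusted p below 0.05 (19.1% of all tested genes). Under TMM it was 76 (42.3% of all tested genes). With TMM, robo2 missed this threshold without Schneider's replicate 2 and without KRB replicate 1. Since the rule used this contrast, these counts only describe the weight of the scaling.

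Single libraries also weighed on the distance from the Rp genes. It was 0.48 without Schneider's replicate 1 and -0.01 without Schneider's replicate 2, and it was 0.16 and 0.24 without KRB replicates 1 and 2. Set against the summed reads of the Rp genes, an alternative chosen after seeing the data, the median log2 ratio of the 76 genes was 0.16 and 63 of them were above 0. The higher place of the 76 genes relative to the Rp genes therefore depended on Schneider's replicate 2. The log2 fold changes of all 76 genes stayed above 0 with each library left out and with the TMM, relative log expression, upper-quartile and total count scalings, but 13 genes were below 0 when set against the Rp reads.

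**Figure D4:**
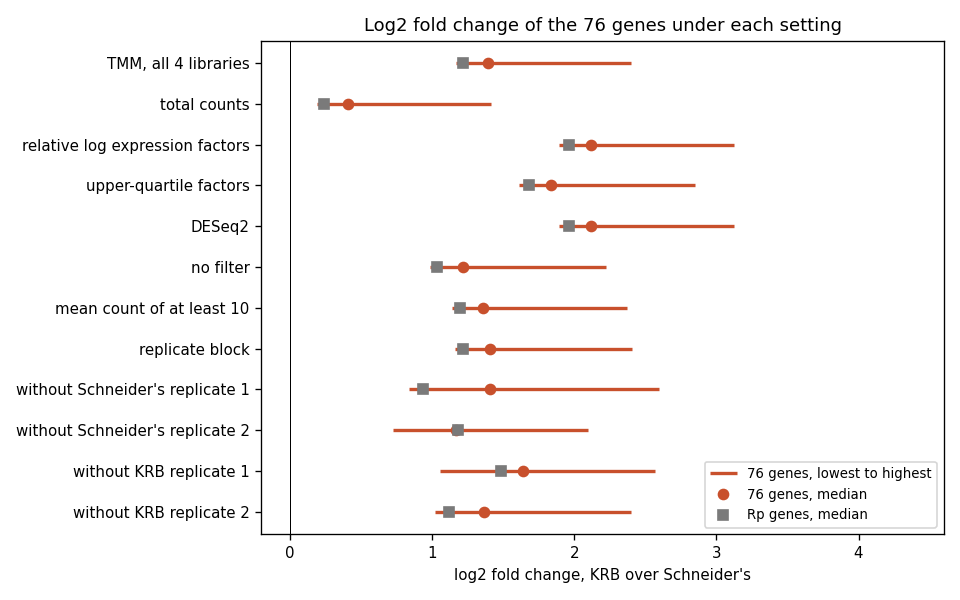
Log2 fold change, KRB relative to Schneider's medium (horizontal axis) under each scaling, filter, model and left-out library. Red lines run from the lowest to the highest of the 76 genes, red points are their medians and grey squares the medians of the 38 Rp genes. The median of the 76 genes lies between 0.41 with total counts and 2.12 with relative log expression factors.

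Levels were compared between genes only per kilobase of annotated exon, for the 75 genes with a place in the annotation. Per kilobase, Cp1 had the highest level, with a mean normalized count of 11108 in Schneider's medium and 26592 in KRB. Non1 had 4863 and 11202 and Pect 4585 and 11543, so that Non1 came next in Schneider's medium and Pect in KRB. Then the levels dropped, since the median per kilobase was 511 in Schneider's medium and 1367 in KRB. The lowest level per kilobase was that of pyd, with 114 and 274. Some genes high in raw counts were thus modest per kilobase, as Hsromega with 320 and 1651.

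The 76 genes were long. The rule did not use length directly, but its count minimum favours long transcripts. It also left out genes by name, among them the short Rp genes, so that part of the distance from the Rp genes was built in. The annotated span, introns included, had a median of 11671 bases over the 75 matched genes. It was 1316 over the Rp genes, 3622 over 509 other protein-coding genes with a positive log2 fold change and 1901 over 864 with a negative one. The longest was pyd, at 3R:8827068-8931896, with 104829 bases, and the shortest was Arc2 with 902. Spans over 10000 bases were found in 40 of the 75 genes (53.3%), in 27.5% of the other genes with a positive and in 5.90% of those with a negative log2 fold change. The span was 2.55 times the exon length in the median gene of the 76, compared with 1.41 and 1.12 times in those other sets. Among the other 62 listed genes with at least 1000 reads in every library, most of them Rp genes, the median span was 1533 bases. In the 10 that were lower in KRB it was 3797 bases. The median exon length was 4258 bases, against 2253 in the other genes with a positive value. These differences in length were not tested.

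**Figure D5:**
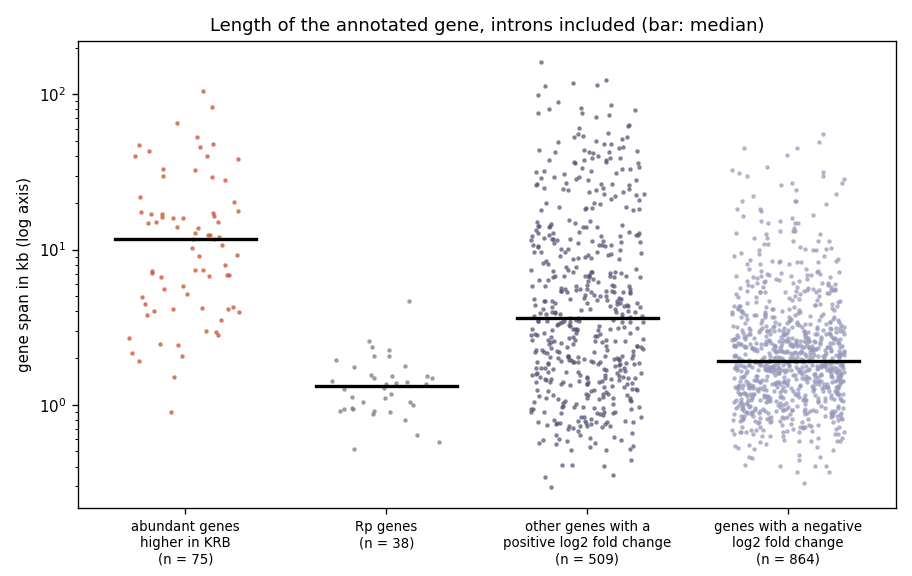
Span of the annotated gene in kilobases (vertical log axis), introns included, for the 75 matched genes, the 38 Rp genes, 509 other protein-coding genes with a positive log2 fold change and 864 with a negative one. Each point is a gene, spread sideways at random, and the bars are medians, 11671 bases in the first set and 1316 bases in the Rp genes.

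Not all 76 genes are separate measurements. CG46310 lies wholly within exons of Irk1 (3R:23168317-23185642, plus strand), and its reads were 95.2% to 97.3% of those of Irk1 in each library. Its normalized counts were 1826 and 1555 in Schneider's medium and 4317 and 3294 in KRB. CG46315 lies wholly within exons of CG6424 (2R:17703335-17719346, minus strand), and its reads were 98.8% to 99.5% of those of CG6424. The same reads were thus counted under both names, which leaves 74 genes. In all, 31 of the 75 matched genes shared exon bases with another annotated gene on either strand (41.3%, against 38.3% of all listed genes), and 8 shared over 40% of theirs. Apart from these 4 genes they were sky (76.1%), CG13893 (63.6%), CG10527 (61.6%) and robo2 (41.0%). On the same strand, sky shares exon bases with CG43739, which is not a member, and robo2 with lncRNA:CR44898. CG43739 held 978 and 1545 raw reads in Schneider's medium and 1930 and 2878 in KRB. Those of sky were 1038 and 1639 against 2071 and 3037, so that many reads may have been counted under both names. The sources do not say whether strand was used in counting, so that reads of antisense neighbours cannot be told apart either. Without the 31 genes the median log2 fold change of the remaining genes was 1.43.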

How the data were processed

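RNA of S2 cells from 4 samples, 2 per medium after 4 h, was sequenced with a stranded library kit. The authors aligned reads to Dm6 with STAR 2.4.0.1, used an in-house script to count reads for each transcript, and ran edgeR 3.24.3 on the counts. They deposited raw read counts per gene symbol for 2049 genes, without normalization. The authors' log fold changes and p-values in the same table were not used. The use of strand in counting and the rule of the selection are not given in the sources used here.

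For the present values, edgeR 4.0.16 was run in R 4.3.3 on the deposited counts (filterByExpr, TMM, glmQLFit and glmQLFTest, two-sided, medium as the only term, all 4 libraries, Benjamini-Hochberg adjustment over 1756 tested genes, 293 removed). The biological coefficient of variation was 0.207. Normalized counts are counts divided by the relative effective library size. The standard error is the size of the log2 fold change over the square root of F. With 2 replicates, p-values measure the spread between these samples only. The members and lists were chosen with earlier results of these data known, and the roles and the lists of the JNK, JAK/STAT, decay, zinc, ABC, WNK and Toll genes were made after the members had been seen. Genes given with values in every library were the 10 most counted, the 5 largest and 5 smallest log2 fold changes, members of the lists and those nearest to the limits of the rule, and others were chosen after their values were seen. Coordinates and lengths are from the BDGP6 annotation, Ensembl release 115, which has the Dm6 assembly (1695 symbols matched directly, 2036 in all, 13 not matched). One member symbol, Ald, is a synonym of several genes and was left without annotation. Another member is not reported here by name and is left out of the plots that name genes. No sequence is printed.

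The fit was run on simulated data: of 1644 tested genes, 49 of 90 changed by 1 log2 unit and 93 of 97 changed by 2 were recovered, with 7 false calls. In the simulation most genes were unchanged and as many rose as fell. The listed genes were instead selected for their change, so the simulation cannot show how well the scaling worked on them. Alternatives were relative log expression factors, upper-quartile factors, total counts, DESeq2 1.42.0, edgeR's exact test, no filter, a mean count of at least 10, a replicate block, each library left out and other limits of the rule. Figures were made with matplotlib 3.10.9 in Python 3.11.15.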

Additional observations from a re-analysis of the deposited data

How the results depend on the processing

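The median log2 fold change of the 76 genes, 1.39, was 0.41 with total counts, 1.84 with upper-quartile factors, 2.12 both with DESeq2 and with relative log expression factors, and 1.22 with no filter. It was 1.17 to 1.64 with 1 library left out. Chosen after seeing the data were the scaling by Rp reads, which gave 0.16, the higher count minimum for the replicate ratio, and the removal of genes that share exon bases, which gave 1.43. With the replicate block it was 1.40, with 751 genes called higher and 1004 lower. The deviations of same-numbered libraries correlated at 0.29 over 1710 genes (0.35 over the 76 genes), but with 2 pairs, and no source that ties them, the numbers were not taken to pair the libraries. Of all tested genes, 742 were called higher and 942 lower. With total counts 335 were called higher, and 178, 547 and 89 were called lower with relative log expression factors, upper-quartile factors and DESeq2. With 1 library left out, 650 to 781 were called higher and 530 to 938 lower, with the 530 found without KRB replicate 1. A minimum of 500 reads would give 117 genes and one of 2000 reads 33, while ratios below 3 and below 6 give 70 and 79. All 76 genes stayed above 0 in these settings except against the Rp reads, where 63 did. The median replicate ratios moved by less than the spread over the 76 genes with other scalings and minimums. A higher minimum keeps the same preference for genes high in Schneider's replicate 1. Only the reads on listed genes are known, so that depth limits cannot be given for the whole libraries, and 2 replicates per medium leave single-gene values such as that of Mmp1 imprecise.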
